A study of Homo sapiens with 12 samples.

Results

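Integrins, laminins and hemidesmosome genes encode the machinery that fixes epithelial cells to the basement membrane. The set was chosen by gene symbol and holds 37 genes: 12 integrin alpha subunits, 8 integrin beta subunits, 10 laminin chains, 4 other hemidesmosome genes and 3 genes of basement membrane linkers. Each symbol matched 1 row of the count table. Of the 37, 27 passed the low-count filter, among 17775 genes that passed it of 60603 in the table. The 27 are 8 alpha subunits, 5 beta subunits, 8 laminins, the 4 hemidesmosome genes and 2 linkers.

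An integrin is a pair of an alpha and a beta chain that spans the membrane and binds matrix outside the cell and adapters inside it. The alpha chain largely sets the ligand: ITGA3, ITGA6 and ITGA7 pair into laminin receptors, ITGA1, ITGA2, ITGA10 and ITGA11 into collagen receptors, and ITGA5, ITGA8 and ITGAV into receptors for fibronectin, vitronectin and related ligands. Laminins are trimers of an alpha, a beta and a gamma chain. In a hemidesmosome, the pair of ITGA6 and ITGB4 holds laminin outside the cell and is tied to keratin filaments by plectin (PLEC) and dystonin (DST), with the transmembrane collagen COL17A1 and the tetraspanin CD151 beside it.

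All libraries came from T24 cells, a long-established line of human bladder carcinoma. Poly(A) RNA was sequenced from 4 groups of 3 libraries: WT cells without treatment, WT cells with 5-Ad-IAA, NS1 cells without treatment and NS1 cells with 5-Ad-IAA. The series concerns AlissAID, in which an auxin-type inducer, here 5-Ad-IAA, brings an untagged protein to a ubiquitin ligase through a binding protein. The labels give NS1 as a genotype without spelling it out. A synthetic RAS-binding protein carries the same name, and the labels do not say whether that is meant. Whether the NS1 line is a single clone is not stated, and the dose and duration of treatment are not used here. All groups share the parent line and its medium. Nothing in the labels says that replicates are separate cultures, so the p-values measure the spread between these libraries, which may be technical.

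Library totals ran from 10593934 to 20266996 counts, and the replicate 1 library was the deepest of its group in all 4 groups. Of 15 urothelial and epithelial markers, 7 passed the low-count filter, among them KRT7, KRT8, KRT18, KRT19 and GATA3. KRT5, TP63 and UPK3A, which mark basal or differentiated urothelium, had no count in any library. KRT14, KRT20, CDH1, UPK1A and UPK1B did not pass either. Of 6 leukocyte markers only CD68 passed, of 4 endothelial markers only PECAM1, and of 7 fibroblast and smooth muscle markers PDGFRB, COL1A1, ACTA2 and MYH11. Summed leukocyte markers lay between 7.78 and 23.9 normalised CPM (counts scaled to the TMM-adjusted library total), and ITGAM was at 0 in every library. The summed endothelial markers ran from 0.185 to 0.509 CPM in untreated NS1 libraries and from 1.14 to 2.99 with inducer, against 0.967 to 3.37 and 0.63 to 2.09 in WT libraries. The summed fibroblast markers ran from 20.4 to 26.4 and from 25.8 to 38.9 in NS1 libraries, against 20.3 to 26.0 and 18.0 to 24.5 in WT, with DCN at 0 throughout. The summed epithelial markers ran from 4050 to 7580 and from 5090 to 11000.0 in NS1 libraries, against 4350 to 6000.0 and 5190 to 5940 in WT. The mesenchymal markers VIM, CDH2 and ZEB1 all passed. Their sums ran from 181 to 199 and from 202 to 244 in NS1 libraries, against 169 to 201 and 177 to 186 in WT. Between the lines 2 of these 3 were called in each state, 1 higher and 1 lower (12.5% and 28.2% of all genes were called). With inducer in NS1 cells 1 of the 7 epithelial markers was called, GATA3, higher, with a list median log2 fold change of 0.51. The only endothelial marker that passed, PECAM1, was also called higher, with a log2 fold change of 3.19. So was 1 of the 4 fibroblast and smooth muscle markers that passed. No leukocyte or mesenchymal marker was called, and 6.15% of all genes were. With a replicate block within each line 4 of the 7 epithelial markers were called, all higher. In that fit 25.9% of all genes were called (13.0% higher). The part of these marker changes in the results was not tested. In RNA from whole cultures, fewer cells that express a gene and less RNA per cell cannot be told apart.

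Because 5 of the genes were called with the inducer in NS1 cells, the stretch before their transcription start is shown. Sequences are from RefSeq on GRCh38.p14, written 5′ to 3′ on the strand of the gene. Each runs from 250 bases before the start towards it and stops at the first base that GENCODE release 29 holds as an exon of that gene. For ITGA6, which has 2 starts in the table, the one farthest upstream was used. Capitals mark matches on either strand to a ZEB/SNAI E-box (CACCTG), an SP/KLF GC box (GGGCGG), an ETS site (CCGGAA), an AP-1 site (TGANTCA) or a TEAD site (GGAATG).
ITGA6, chr2:172427086-172427335, plus strand: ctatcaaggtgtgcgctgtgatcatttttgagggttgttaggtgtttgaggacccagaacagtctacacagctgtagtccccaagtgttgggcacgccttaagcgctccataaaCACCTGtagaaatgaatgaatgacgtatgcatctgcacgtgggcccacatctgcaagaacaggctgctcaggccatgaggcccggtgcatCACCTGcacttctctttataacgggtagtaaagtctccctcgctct
COL17A1, chr10:104085958-104086130, minus strand: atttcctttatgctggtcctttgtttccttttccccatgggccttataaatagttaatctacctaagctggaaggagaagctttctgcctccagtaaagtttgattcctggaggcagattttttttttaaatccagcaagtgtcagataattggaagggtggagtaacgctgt
ITGA2, chr5:52989102-52989325, plus strand: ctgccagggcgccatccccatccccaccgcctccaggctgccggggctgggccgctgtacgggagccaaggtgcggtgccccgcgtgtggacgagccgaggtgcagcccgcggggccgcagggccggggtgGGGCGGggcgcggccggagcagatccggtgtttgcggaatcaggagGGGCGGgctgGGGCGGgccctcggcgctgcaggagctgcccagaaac
ITGA11, chr15:68432164-68432413, minus strand: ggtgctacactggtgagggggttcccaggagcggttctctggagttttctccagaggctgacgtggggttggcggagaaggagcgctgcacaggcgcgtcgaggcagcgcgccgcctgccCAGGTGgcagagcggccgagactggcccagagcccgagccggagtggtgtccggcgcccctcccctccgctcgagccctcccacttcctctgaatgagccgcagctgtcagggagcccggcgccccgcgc
LAMB2, chr3:49133119-49133300, minus strand: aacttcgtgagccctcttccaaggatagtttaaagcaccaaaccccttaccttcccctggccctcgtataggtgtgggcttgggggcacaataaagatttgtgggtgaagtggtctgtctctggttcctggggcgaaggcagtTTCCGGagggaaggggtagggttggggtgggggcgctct
ITGA6 held the E-box letters at -136 and -46 from its start, and ITGA11 held them at -130 on the opposite strand. ITGA2 held the GC box at -119, -73, -63 and -9, the last outside the printed stretch. LAMB2 held an ETS match at -107 and a GC box at -68, the latter also outside the printed stretch. COL17A1 held none of the 5 motifs in its 250 bases. Of 35116 windows of 250 bases in the RefSeq table, 17.5% held the E-box letters, 42.6% the GC box, 14.5% the ETS site, 6.57% the AP-1 site and 11.9% the TEAD site. A promoter was found for 27 of the 37 genes, chosen without regard to the low-count filter. Of these, 7, 17, 5, 2 and 5 held the motifs in the same order E-box, GC box, ETS, AP-1 and TEAD. A gene with several starts counted if any of its windows held the motif, so these counts are not comparable with the shares of windows. These matches describe letters only.

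Among the integrin chains, transcript levels were led by ITGA3, at 142 CPM per kilobase of merged exon as a mean over the 12 libraries, and by ITGB1, its usual partner, at 109. ITGA6 followed at 60.8, then ITGA5 at 26.6, ITGB5 at 24.2, ITGA2 at 23.1 and ITGAV at 11.7 CPM per kilobase. Among laminins, LAMB3 stood at 73.0, LAMC1 at 33.5, LAMA5 at 24.2, LAMB2 at 19.1 and LAMB1 at 18.8 CPM per kilobase. PLEC had 77.3 and CD151 71.4, while COL17A1 had 0.33 CPM per kilobase and LAMA3 0.288. DST had 3.15 CPM per kilobase, over a merged exon length of 42.3 kilobases that joins many isoforms and so understates any single one.

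The 10 genes that did not pass the filter were ITGA4, ITGA8, ITGA9, ITGA10, ITGB2, ITGB6, ITGB7, LAMA2, LAMC3 and NID2. ITGA8 had no count in any library. ITGA4 and LAMC3 had at most 2 counts in a library, and neither had any in the 6 NS1 libraries. ITGB2 and ITGB7, the beta chains of leukocyte integrins, had at most 17 and 4 counts. LAMA2, the muscle laminin chain, had 3 to 11 counts per library and NID2 1 to 14.

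The question of the inducer's effect in NS1 cells was addressed by treated against untreated NS1 libraries. With 5-Ad-IAA the collagen receptor chain ITGA11 and the laminin chain LAMB2 rose, and the laminin receptor chain ITGA6, the hemidesmosomal collagen COL17A1 and the collagen receptor chain ITGA2 fell. These 5 of 27 were called (edgeR quasi-likelihood test, p under 0.05 after Benjamini-Hochberg adjustment across the 17775 genes tested), 2 higher and 3 lower. Of all genes tested 6.15% were called, 2.76% higher and 3.39% lower. The median log2 fold change of the 27 was 0.17 against 0.0055 over all genes, and the median size of change was 0.28 against 0.20. The ranges of normalised CPM were apart for 9 of the 27, 5 higher and 4 lower, where those of 27.2% of all genes were (13.2% higher, 14.0% lower). The 5 calls came from a fit without a block. An alternative fit with a replicate block within each line takes the libraries of a line as paired by number. In it 13 of the 27 were called, 8 higher and 5 lower, where 25.9% of all genes were called (13.0% higher, 12.8% lower).

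ITGA6 (ENSG00000091409, chromosome 2, 172427354 to 172506282) is the alpha chain of the hemidesmosomal integrin. It held 316, 283 and 271 CPM in untreated NS1 replicates 1, 2 and 3, and 153, 152 and 124 CPM with inducer. Every treated library lay below every untreated one, and each pair fell to between 0.457 and 0.538 of its untreated level. The log2 fold change was -1.02 (SE 0.175, n = 3 per group, edgeR adjusted p 0.00666). The antisense gene ITGA6-AS1, whose exons overlap those of ITGA6, fell by 1.045 on the log2 scale (edgeR adjusted p 0.0252) from a mean level over all libraries of 12.7 CPM. Whether the counting used strand is not given in the sources used here, so reads of these overlapping genes cannot be told apart.

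COL17A1 (ENSG00000065618, chromosome 10, 104031286 to 104085957) encodes the hemidesmosomal collagen also called BP180. Untreated NS1 libraries held 2.16, 1.82 and 1.44 CPM, and treated ones 0.676, 0.175 and 0.166. The groups did not overlap, but the treated libraries rest on 13, 2 and 2 counts. Its log2 fold change was -2.23 (SE 0.395, edgeR adjusted p 0.00719). Without replicate 1 it was -3.20 (edgeR adjusted p 0.00248), but each treated library left there held 2 counts, so the size of that change is uncertain. ITGA2 (ENSG00000164171, chromosome 5, 52989326 to 53094779), the alpha chain of the main epithelial collagen receptor, went from 219, 207 and 201 to 147, 119 and 104 CPM. Its log2 fold change was -0.76 (SE 0.203, edgeR adjusted p 0.0437), with no overlap of the groups. Leaving out any 1 of the 6 NS1 libraries lost the ITGA2 call in 5 of 6 fits, the exception being treated replicate 1.

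ITGA11 (ENSG00000137809, chromosome 15, 68296533 to 68432162) pairs with ITGB1 into a receptor for fibrillar collagen that is best known from fibroblasts. Its level went from 9.63, 18.5 and 16.3 to 34.9, 66.7 and 68.5 CPM. All treated libraries were higher, by 3.63, 3.6 and 4.19 times within the pairs. Its log2 fold change of 1.94 (SE 0.303, edgeR adjusted p 0.0045) was the highest of the 27. LAMB2 (ENSG00000172037, chromosome 3, 49121114 to 49133118), the beta chain that replaces LAMB1 in many mature basement membranes, went from 102, 128 and 123 to 154, 212 and 217 CPM. The groups did not overlap, and the log2 fold change was 0.725 (SE 0.139, edgeR adjusted p 0.00978).

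**Figure D1:**
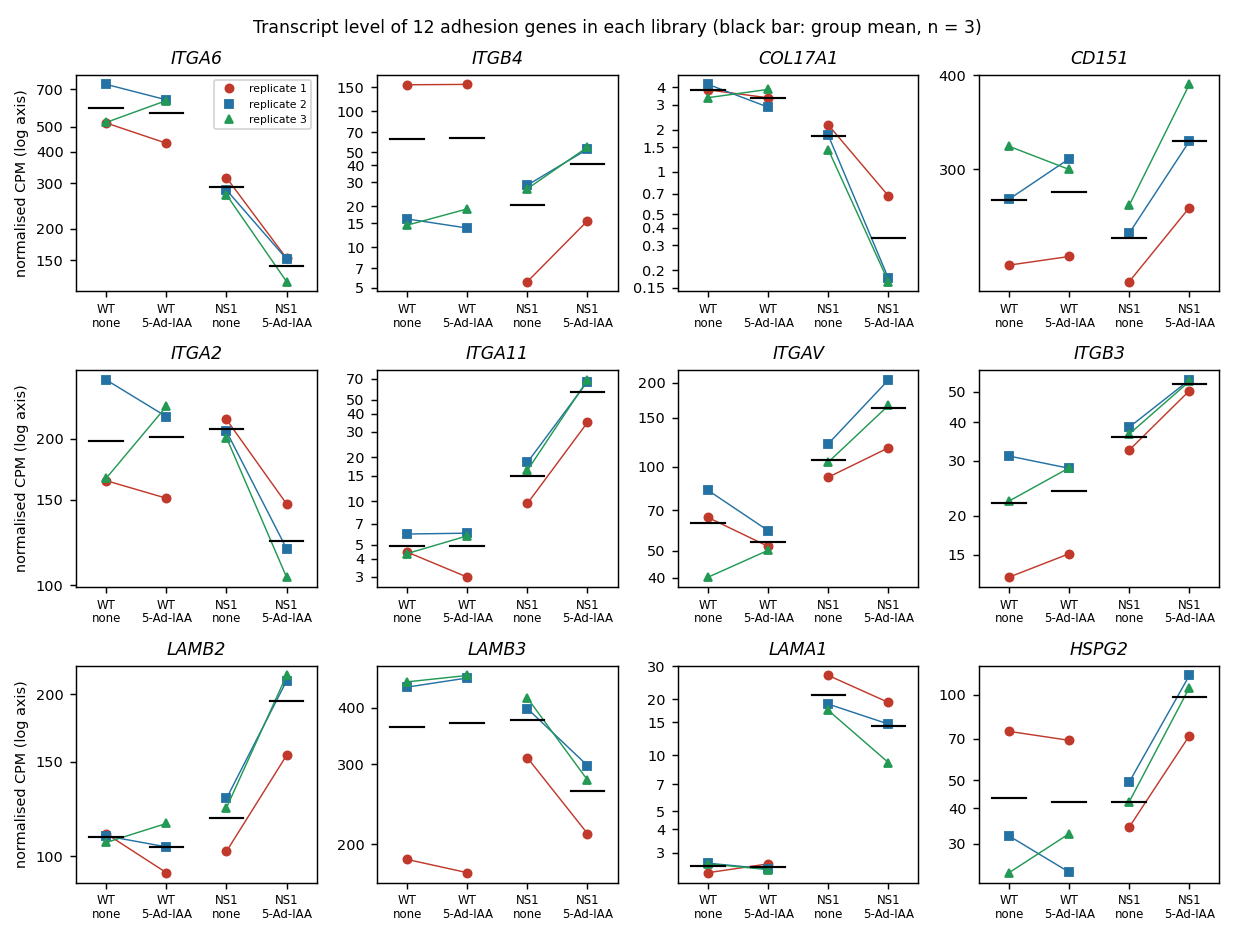
Normalised CPM (log axis) of 12 of the genes in each of the 12 libraries, with points for libraries, a colour and shape for each replicate number, lines joining libraries of the same number within a line, and black bars for group means (n = 3). ITGA11 in the treated NS1 libraries sits between 34.9 and 68.5 CPM, above all others, and ITGB4 in WT replicate 1 sits near 157 CPM, far above the other WT libraries.

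Left out singly, no NS1 library lost the calls of ITGA6, ITGA11, LAMB2 or COL17A1. Without replicate 2 and without replicate 3, however, no gene of the set was called and none of all genes (0.0%), with the log2 fold changes of these 4 genes in the same direction. Without replicate 1, 10 of the 27 were called, where 11.4% of all genes were.

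The replicate block within each line added 8 calls. HSPG2, which encodes the linker proteoglycan perlecan, held 34.3, 49.4 and 42.1 CPM in untreated and 71.8, 117 and 106 CPM in treated NS1 libraries, without overlap. Its pair ratios were 2.10, 2.37 and 2.52, and its adjusted p was 0.101 without the block and 3.12e-06 with it. The partly overlapping gene LDLRAD2, on the opposite strand, stood at 1.52 on the log2 scale (adjusted p 0.0613 without the block). ITGB4, the beta chain that pairs only with ITGA6, held 5.56, 28.6 and 26.9 CPM untreated and 15.6, 52.6 and 54.5 CPM treated. All 3 pairs were higher, by 2.82, 1.84 and 2.02 times, but replicate 1 lay far below the others in both groups and the groups overlapped. The adjusted p of ITGB4 was 0.656 without the block and 1.21e-05 with it.

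ITGAV, an alpha chain for vitronectin and latent TGF-beta, held 91.8, 121 and 104 CPM untreated and 117, 205 and 166 CPM treated. Its partner chain ITGB3 held 32.5, 38.5 and 36.6 CPM and then 50.4, 54.6 and 54.0. ITGB3 did not overlap between the groups and ITGAV did. Their adjusted p values were 0.139 and 0.261 without the block and 0.00148 and 0.000255 with it. CD151, the tetraspanin of laminin-binding integrins, held 213, 247 and 269 CPM untreated and 267, 327 and 389 treated, with overlap, and had adjusted p values of 0.162 and 0.000808. Exons of POLR2L and AP006621.1 overlap those of CD151 on the opposite strand. They held 44253 and 7048 counts over all libraries, against 47332 for CD151. Without the block they stood at 0.01 and 0.38 on the log2 scale (edgeR adjusted p 0.985 and 0.274). The collagen receptor chain ITGA1 held 8.02, 13.7 and 11.6 CPM and then 9.46, 18.6 and 18.9, with adjusted p values of 0.36 and 0.0315. Exons of PELO lie within ITGA1 on the same strand at a mean level of 39.2 CPM, and PELO itself stood at -0.06 on the log2 scale (edgeR adjusted p 0.885).

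Lower with the inducer under the block were LAMB3 and LAMA1. LAMB3, the beta chain of the laminin that hemidesmosomes bind, held 310, 398 and 420 CPM untreated and 211, 298 and 277 treated, without overlap. Its adjusted p was 0.464 without the block and 8.38e-05 with it. LAMA1, an embryonic laminin alpha chain, held 26.8, 18.8 and 17.4 CPM and then 19.2, 14.7 and 9.13, with overlap, and had adjusted p values of 0.183 and 0.0018. The other 14 of the 27 were called in neither fit. Among them were ITGB1, the shared beta chain, at 610 ± 37.8 CPM untreated and 607 ± 51.2 treated (SD, n = 3), and ITGA3 at 1310 ± 253 and 1486 ± 185. LAMC1, the common gamma chain, stood at 246 ± 15.2 and 246 ± 23.6 CPM, LAMA5 at 298 ± 18.6 and 286 ± 30.1, and PLEC at 1283 ± 59.6 and 1505 ± 66.8. Of these 5, only PLEC did not overlap between the groups, with at most 1352 CPM untreated and at least 1430 treated.

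The same treatment in WT cells served as the comparison for the inducer itself. None of the 27 was called by edgeR, none had an unadjusted p under 0.05, and DESeq2 called none, where 0.0% of all genes were called. Of the 17775 genes tested, 94 had an unadjusted p under 0.05 with edgeR. The lowest unadjusted p of the 27 was 0.347, and the log2 fold changes ran from -0.23 for ITGAV to 0.30 for ITGA7. ITGA6 held 517, 732 and 520 CPM in untreated and 431, 637 and 633 CPM in treated WT libraries. ITGA11 held 4.45, 5.93 and 4.35 CPM and then 2.99, 6.01 and 5.76. For no gene of the 27 were the WT groups apart, where 3.41% of all genes did not overlap (1.68% higher, 1.73% lower). None moved the same way in all 3 WT pairs either, whereas 12 were higher and 6 lower in all 3 NS1 pairs (29.0% and 28.6% of all genes for NS1, 9.3% and 9.27% for WT).

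The difference between the lines in their response was tested as an interaction. No gene of the 27 was called by edgeR without a block, where 0.0225% of all genes were called (0.0113% in each direction). In that fit 7 of the 27 had an unadjusted p under 0.05, as had 2196 of the 17775 genes tested. The lowest adjusted p was 0.0904, for ITGA11. DESeq2 called 3, which were ITGA11, ITGA6 and LAMB2, and 2.12% of all genes. Without replicate 1 edgeR called 7 of the 27 and 3.24% of all genes, and without treated NS1 replicate 1 alone 3 of 28 that passed and 0.816% of all genes. With the replicate block within each line 11 were called, 7 with a higher and 4 with a lower change in NS1 cells, where 14.0% of all genes were called (6.98% higher, 7.06% lower). In that fit ITGA11 differed by 2.01 (adjusted p 2.66e-05), HSPG2 by 1.26 (0.000193), ITGB4 by 1.03 (0.000717), ITGAV by 0.79 (0.00567) and LAMB2 by 0.78 (0.00038) on the log2 scale. CD151 and ITGB3 differed by 0.38 and 0.42 with adjusted p values of 0.0267 and 0.0435. Lower in NS1 cells were COL17A1, by -2.05 (adjusted p 0.00509), ITGA6, by -0.96 (0.000376), ITGA2, by -0.805 (0.00389) and LAMB3, by -0.53 (0.00281).

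Before any inducer, the lines already differed. In untreated NS1 cells LAMA1 and ITGA11 were higher than in WT cells, and ITGA6, COL17A1, LAMA3 and LAMA5 were lower. These 6 of 27 were called by edgeR, where 12.5% of all genes were called (5.45% higher, 7.05% lower). Without overlap were 10 of the 27, 4 higher and 6 lower, where 31.0% of all genes did not overlap (14.8% higher, 16.2% lower). The median log2 fold change of the 27 was -0.07 against 8.833e-05 over all genes, and the median size of change 0.42 against 0.24. Without replicate 2, 1 of the 27 was called, where 1.13% of all genes were, and without replicate 3, 2 of 29 that passed the filter in that fit were, against 1.0% of all genes. Without replicate 1, 11 were called (19.6% of all genes), and without untreated WT replicate 3, 10 of 28 that passed were (8.78%).

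LAMA1 held 2.34, 2.63 and 2.61 CPM in untreated WT libraries, against 26.8, 18.8 and 17.4 in untreated NS1 libraries. Its ratio of means was 8.31 and its log2 fold change 3.07 (SE 0.263, edgeR adjusted p 2.57e-05), with each NS1 library far above each WT library. ITGA11 went from 4.45, 5.93 and 4.35 CPM in WT to 9.63, 18.5 and 16.3 in NS1 cells, a log2 fold change of 1.59 (SE 0.331, edgeR adjusted p 0.00833). ITGA6, at 517, 732 and 520 CPM in WT and 316, 283 and 271 in NS1 libraries, had a log2 fold change of -1.02 (SE 0.174, edgeR adjusted p 0.00282). No library of a line reached into the range of the other for these genes.

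LAMA3, the alpha chain of the hemidesmosomal laminin, held 6.70, 6.91 and 3.38 CPM in untreated WT and 1.91, 2.98 and 2.40 in untreated NS1 libraries, a log2 fold change of -1.24 (SE 0.27, edgeR adjusted p 0.0101). LAMA5, the main alpha chain of adult epithelia, held 470, 419 and 358 CPM in WT and 277, 313 and 303 in NS1 libraries, a log2 fold change of -0.48 (SE 0.122, edgeR adjusted p 0.0215). COL17A1 held 3.84, 4.2 and 3.38 CPM in WT, above all 3 untreated NS1 libraries, a log2 fold change of -1.06 (SE 0.296, edgeR adjusted p 0.0337). The COL17A1 call was lost without any 1 of the 6 libraries compared (adjusted p 0.0522 to 0.116). That of LAMA5 was lost in 4 of 6 such fits and in a fit of only the groups compared (0.0535). The gene ADRM1, which overlaps LAMA5 on the opposite strand at 207 CPM, stood at -0.24 on the log2 scale between the untreated lines (edgeR adjusted p 0.172) and at -0.72 with inducer (0.000478).

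With inducer in both lines, 12 of the 27 were called between them, 7 higher and 5 lower in NS1 cells, where 28.2% of all genes were called (13.6% higher, 14.5% lower). The higher genes were ITGA11, LAMA1, ITGAV, ITGB3, HSPG2, ITGA1 and LAMB2, and the lower ones ITGA6, COL17A1, LAMA3, LAMA5 and ITGA2. Of the 27, 14 did not overlap, 7 in each direction, where 43.4% of all genes did not overlap (21.2% higher, 22.2% lower). Without replicate 2, 7 of the 27 were called, where 9.03% of all genes were. This comparison shares its treated NS1 libraries with the inducer comparison in NS1 cells.

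ITGA11 stood at 4.92 ± 1.68 CPM in treated WT and 56.7 ± 18.9 in treated NS1 cells (SD, n = 3), a ratio of 11.5 and a log2 fold change of 3.56 (edgeR adjusted p 1.56e-05). ITGA6 stood at 567 ± 118.1 and 143 ± 16.8 CPM, a log2 fold change of -1.99 (edgeR adjusted p 1.12e-05). COL17A1 stood at 3.38 ± 0.49 and 0.339 ± 0.292 CPM, a log2 fold change of -3.10 (edgeR adjusted p 8.76e-05). In each of these genes the treated lines were fully apart. LAMA1 was higher by 2.52 on the log2 scale (edgeR adjusted p 2.94e-05), and LAMA3 and LAMA5 had -0.99 and -0.44 (edgeR adjusted p 0.0131 and 0.0166).

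ITGAV held 51.8, 59.0 and 50.2 CPM in treated WT libraries and at least 117 in each treated NS1 library, a log2 fold change of 1.6 (edgeR adjusted p 0.00037). ITGB3 held 15.1, 28.4 and 28.5 CPM in treated WT, against at least 50.4, a log2 fold change of 1.15 (edgeR adjusted p 0.00745). AC068234.1, whose exons overlap those of ITGB3 on the same strand, stood at 1.21 between the treated lines (edgeR adjusted p 0.00585). It held 3641 counts over all libraries, against 5616 for ITGB3, and reads of these overlapping genes cannot be told apart. LAMB2 held 93.1, 104 and 115 CPM in treated WT, a log2 fold change of 0.90 (edgeR adjusted p 0.000466), where the untreated lines had 0.12 (adjusted p 0.615). The calls of ITGAV, ITGB3 and LAMB2 held without each of the 6 libraries in turn. ITGA2 (-0.71, edgeR adjusted p 0.0192), ITGA1 (0.93, 0.0254) and HSPG2 (1.22, 0.0422) were called less stably, in 2, 1 and 2 of 6 such fits. The HSPG2 call was also lost with unscaled library totals (adjusted p 0.0625) and with DESeq2 (0.053). LAMA3 and LAMA5 kept theirs in 5 and 4 of 6.

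**Figure D2:**
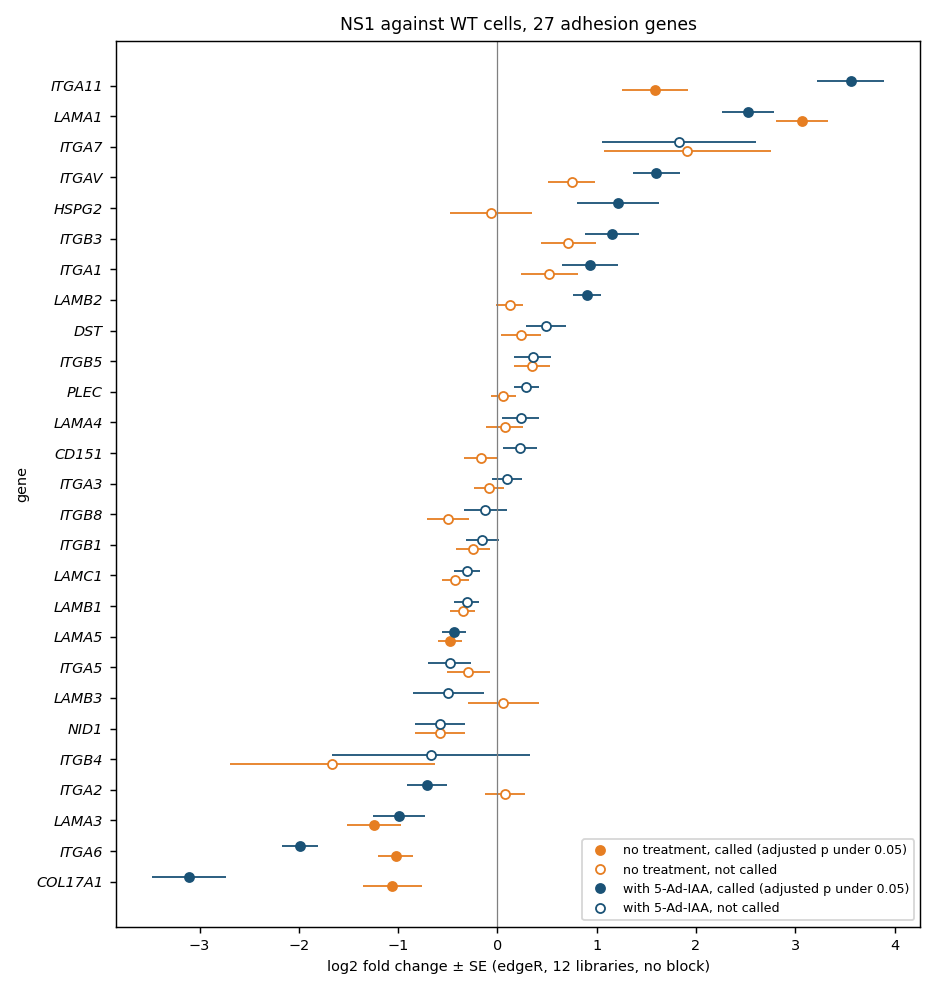
Log2 fold change with SE of each of the 27 genes for NS1 against WT cells, without treatment and with 5-Ad-IAA, from the edgeR fit without a block, with filled points for adjusted p under 0.05. LAMA1 is high in both comparisons (3.07 and 2.52), and COL17A1 and ITGA6 are low in both.

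In ITGB4, HSPG2 and LAMB3, the WT replicate 1 libraries stood apart from replicates 2 and 3. ITGB4 held 157, 16.1 and 14.5 CPM in untreated and 158, 13.8 and 19.1 CPM in treated WT libraries. HSPG2 held 74.4, 31.9 and 23.7 CPM and then 69.2, 23.8 and 32.5. LAMB3 went the other way, at 185, 444 and 456 CPM and then 173, 465 and 471. Lesser departures of WT replicate 1 included those of ITGB3 and NID1. Without and with inducer, ITGB3 stood at 0.476 and 0.529 times the mean of replicates 2 and 3. NID1 stood at 1.66 and 1.34 times that mean. In NS1 cells the ITGB4 level of replicate 1 was 0.2 and 0.292 times the mean of replicates 2 and 3 without and with inducer, against 10.3 and 9.59 times in WT cells. ITGB4 was not called between the lines without inducer (log2 fold change -1.66, edgeR adjusted p 0.325) or with it (-0.67, 0.658). The SD of its WT groups, 82.1 and 81.6 CPM, exceeded the differences of the means. Without replicate 1 both values turned, to 0.855 (adjusted p 0.00224) and 1.71 (5.19e-06). HSPG2 without inducer turned in the same way, from -0.07 (adjusted p 0.941) to 0.715 (0.013). A test within replicate 1 is not possible, since it is a single library in each group, and the labels give no batch.

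Several other genes of the set were called between the lines in some fits but not in the main one. LAMC1 held 335, 381 and 274 CPM in untreated WT and 235, 263 and 241 in untreated NS1 libraries, a log2 fold change of -0.42 (edgeR adjusted p 0.0528, and 0.0245 with DESeq2). ITGAV held 65.8, 82.3 and 40.2 CPM in untreated WT, below all untreated NS1 libraries, and stood at 0.75 on the log2 scale (edgeR adjusted p 0.0539, and 0.0149 with DESeq2). ITGB3 held 12.7, 31.1 and 22.3 CPM in untreated WT libraries, also below all untreated NS1 libraries (log2 fold change 0.71, edgeR adjusted p 0.112). ITGA5, the fibronectin receptor chain, held 168, 241 and 256 CPM untreated and 163, 266 and 278 treated in WT, and 139, 198 and 206 and then 148, 181 and 178 in NS1 libraries. With inducer its log2 fold change between the lines was -0.48 (edgeR adjusted p 0.116, and 0.0484 with unscaled library totals). The lines overlapped in both states.

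DST held 99.6, 103 and 129 CPM in treated WT and 166, 175 and 127 in treated NS1 libraries. Its log2 fold change was 0.49 (edgeR adjusted p 0.0844, and 0.0368 with only the groups compared). LAMB1 held 207, 176 and 141 CPM in untreated WT and 140, 139 and 133 in untreated NS1 libraries, then 180, 160 and 158 against 128, 142 and 132 with inducer, without overlap in either state. Its edgeR adjusted p was 0.0869 and 0.0835. DLD, which overlaps LAMB1 on the opposite strand, stood at -0.54 and -0.55 on the log2 scale between the lines (edgeR adjusted p 0.0308 and 0.0133). NID1, the linker of laminin to collagen IV, held 187, 140 and 85.5 CPM in untreated WT and 76.4, 105 and 95.9 in untreated NS1 libraries (adjusted p 0.153), and 154, 113 and 116 against 63.6, 106 and 86.7 with inducer (adjusted p 0.102). Its lines overlapped without inducer and not with it. ITGB5 held 122, 149 and 131 against 124, 195 and 193 CPM and then 130, 142 and 149 against 135, 198 and 204, with overlap in both states. ITGB8 held 46.9, 52.4 and 27.2 against 31.8, 29.1 and 28.9 CPM and then 32.1, 40.2 and 38.4 against 26.9, 43.0 and 31.8, again with overlap. ITGA7 stayed at or below 2.33 CPM in all 12 libraries. LAMA4, a laminin alpha chain of vessels and mesenchyme, held 37.9 to 69.9 CPM over all libraries. It overlapped between the lines in both states, as did CD151, ITGA3, ITGB1, LAMB3 and PLEC.

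Seen as shares of a receptor class per kilobase of exon, the composition differed between the groups. These shares come from the same values as above and are a description. Of the laminin-binding alpha chains, ITGA6 made up 38.6% ± 2.97 (SD, n = 3) in WT cells without and 37.7% ± 3.05 with inducer. In NS1 cells it made up 25.4% ± 5.55 without and 12.7% ± 2.36 with inducer. The rest was almost all ITGA3, from 61.3% ± 2.95 in untreated WT to 87.1% ± 2.3 in treated NS1 cells. The summed level of the class was 232, 228, 178 and 174 CPM per kilobase in the same order of groups.

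ITGA11 made up 1.77% ± 0.164 and 1.67% ± 0.256 of the collagen-binding alpha chains in untreated and treated WT cells, 4.82% ± 1.54 in untreated and 24.2% ± 8.66 in treated NS1 cells. ITGA2 was the main chain throughout, at 96.3% in both WT groups, 92.9% ± 2.15 in untreated NS1 and 71.6% ± 10.1 in treated NS1 cells. In treated NS1 cells replicate 1 held the lowest ITGA11 share, 14.4%, against 27.6% and 30.7%. The summed level of this class was 26.0, 26.5, 28.4 and 21.7 CPM per kilobase.

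ITGAV made up 21.1% ± 7.39 of the sum of ITGAV, ITGA5 and ITGA8 in WT cells without and 18.0% ± 4.29 with inducer. The same share in NS1 cells was 35.3% ± 3.21 and then 46.5% ± 4.45. Among laminin beta chains LAMB2 held 15.0% ± 0.524 in untreated and 28.1% ± 1.35 in treated NS1 cells, while LAMB3 held 70.0% ± 2.5 and 55.4% ± 1.39. In WT replicate 1, LAMB3 was 48.8% and 50.8% of the beta chains, against at least 71.6% in the other WT libraries. LAMA5 was the main laminin alpha chain in all groups, from 84.6% ± 2.1 in untreated WT to 74.5% ± 4.17 in treated NS1 cells. The ratio of ITGB4 to ITGA6 per kilobase, the hemidesmosomal pair, ran from 0.017 to 0.0976 in untreated and from 0.0986 to 0.425 in treated NS1 libraries, and from 0.0209 to 0.354 in WT libraries.

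**Figure D3:**
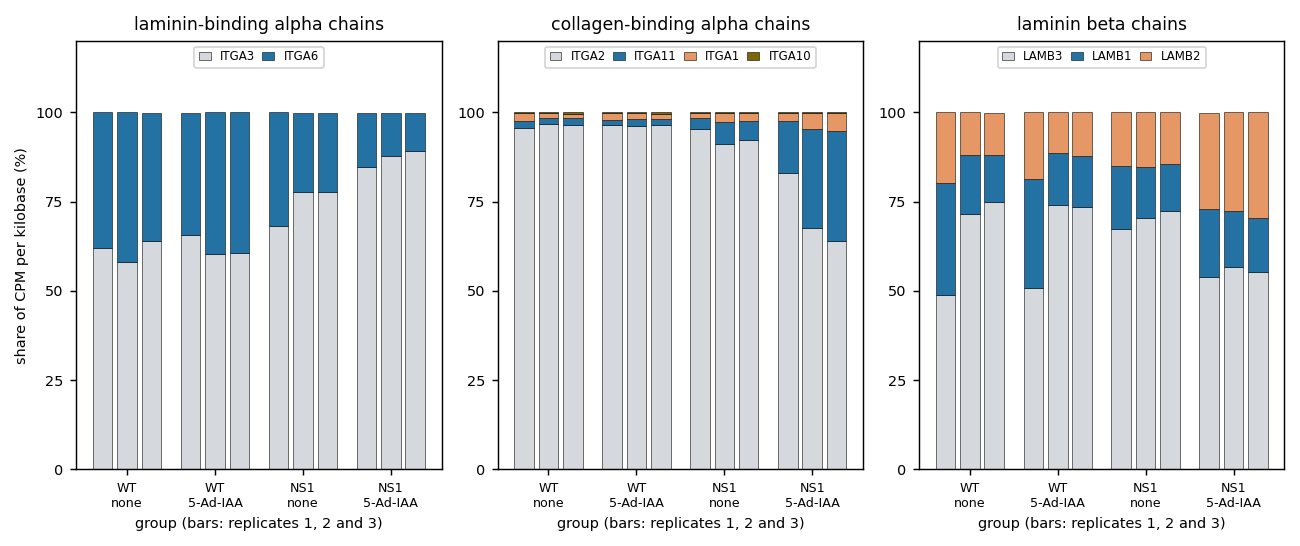
Share of CPM per kilobase of exon (%) within the laminin-binding alpha, collagen-binding alpha and laminin beta chains, with 1 stacked bar per library and replicates 1, 2 and 3 in order within each group. ITGA7 is counted in the laminin-binding sum but not drawn, since its share is at most 0.204%. ITGA6 shrinks from 38.6% in untreated WT to 12.7% in treated NS1 cells, and ITGA11 reaches 24.2% in treated NS1 cells.

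Inside the cell, integrins act through adapters and kinases, and 39 of 42 genes of an adapter and signalling list passed the filter. With inducer in NS1 cells 2 of the 39 were called, both higher, a share of 5.13% against 6.15% of all genes, and the median log2 fold change was 0.17 against 0.0055 over all genes. These were NEDD9, a docking protein of focal adhesions, with 8.64 ± 3.32 CPM untreated and 21.2 ± 3.21 treated (SD, n = 3; log2 fold change 1.28, edgeR adjusted p 0.00768), and TNS3, a tensin, with 43.3 ± 4.02 and 72.1 ± 17.8 (0.73, adjusted p 0.021). With the replicate block within each line 15 were called, 13 higher and 2 lower, where 25.9% of all genes were called. In WT cells none was called in either fit, and none was called for the interaction without a block. Between the untreated lines 16 were called, 9 higher and 7 lower in NS1 cells, and with inducer 19, 15 higher and 4 lower. These are 41.0% and 48.7% of the list, against 12.5% and 28.2% of all genes.

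TNS1, another tensin, was higher in NS1 cells by 2.28 and 3.22 on the log2 scale without and with inducer (edgeR adjusted p 7.86e-05 and 3.26e-06). TLN2, a talin that links integrin tails to actin, was higher by 1.43 and 1.91 (0.00261 and 0.000115), and NEDD9 by 1.21 and 2.54 (0.00814 and 1.92e-05). PARVB, a parvin of the complex with integrin-linked kinase, was lower, with -1.52 and -1.24 (0.000209 and 0.000215). Also lower without inducer were TNS3 (-1.05, 0.0017) and TNS2 (-0.84, 0.0204), and with inducer GIT1 (-0.50, 0.00332) and RSU1 (-0.38, 0.0106).

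Of 28 other basement membrane and laminin receptor genes, 21 passed. With inducer in NS1 cells only SDC1, a syndecan, was called, lower at 161 ± 5.57 against 228 ± 14.8 CPM (log2 fold change -0.50, edgeR adjusted p 0.0357). This was 4.76% of the list, against 6.15% of all genes, and the median of the list was 0.19. Under the replicate block within each line 9 were called, 8 higher and 1 lower, where 25.9% of all genes were called. Between the lines 6 were called without inducer, 5 higher and 1 lower, and 10 with it, 9 higher and 1 lower. These are 28.6% and 47.6% of the list, against 12.5% and 28.2% of all genes. FRAS1, a basement membrane protein of the Fraser complex, was higher by 3.84 and 4.77 on the log2 scale (adjusted p 0.000288 and 1.61e-05), and SDC2 by 3.08 and 3.13 (0.00123 and 0.000273). COL18A1 was higher by 0.73 without inducer (0.0473), where FBLN1 was lower (-1.12, 0.0407), and SDC1 was lower with inducer (-0.65, 0.0023). COL4A4 was called higher with inducer, at 4.39 ± 3.23 CPM against 0.0247 ± 0.0428 in treated WT cells, where no library passed the floor of 3 counts, so no fold is given.

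Of 27 other integrin ligand genes, 17 passed. TGFBI, a matrix ligand of several integrins, was the only one called with inducer in NS1 cells, at 116 ± 14.3 CPM untreated and 176 ± 4.53 treated (log2 fold change 0.60, edgeR adjusted p 0.0369), with a list median of 0.20. That call is 5.88% of the list, against 6.15% of all genes. With the replicate block within each line 7 were called, all higher, where 25.9% of all genes were called. Between the lines 5 were called without inducer and 7 with it, all higher in NS1 cells. These are 29.4% and 41.2% of the list, against 12.5% and 28.2% of all genes. EDIL3, a ligand of ITGAV integrins, was higher by 2.48 and 3.44 (adjusted p 4.34e-05 and 2.18e-06), TGFBI by 2.24 and 2.72 (5.63e-06 and 8.08e-07). CCN2 was higher without inducer by 1.18 (0.014), and L1CAM with it by 1.69 (0.0155). All of these calls are adjusted over the 17775 genes tested.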

How the data were processed

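The members, the gene lists and the tests were chosen with earlier results of these data known. The authors deposited the read counts, as whole numbers without normalization, in 1 table of 60603 versioned Ensembl genes, and all 12 columns were matched to libraries by name. Per the submitters' processing notes, STAR 2.7.3a, featureCounts 1.6.4 and build hg38 were used. Which annotation was counted, and whether by strand, is not given in the sources used here. Reads in overlapping genes may therefore have been counted for either gene or for none.

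The tests used edgeR 4.0.16 under R 4.3.3: filterByExpr over the 4 groups (17775 genes), TMM, 1 mean per group over all 12 libraries and glmQLFTest, two-sided, with Benjamini-Hochberg adjustment over all genes. A gene was called at an adjusted p under 0.05. Standard errors of log2 fold changes were derived from the F statistic. The edgeR step was tested on simulated data. DESeq2 1.42.0, other scalings, filters and replicate blocks, and leaving out libraries, were alternatives. Positions and merged exon lengths come from GENCODE release 29, whose versions equal the file's for 6 of the 37 genes. Library totals of 10593934 to 20266996 counts set the precision, and the floor of 3 counts covers counting error only. Genes are named by rule: every member, and from each list up to 3 called genes of highest and 3 of lowest log2 fold change with a mean of at least 1 CPM.

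Replicate numbers are shared by the groups in the labels. The deviations of same-numbered libraries from their group means correlated at 0.713, 0.386 and 0.384 in NS1 cells and 0.752, 0.385 and 0.256 in WT. Between replicates 2 and 3, unlike numbers correlated almost as highly, at 0.371 and 0.278 in NS1 and 0.367 and 0.248 in WT cells. The values set replicate 1 apart, but do not show that replicates 2 and 3 pair by number. The main fit held no block. Pairing by number entered only the pair ratios and the alternative fits with a replicate block. Between the lines, same-numbered libraries correlated at 0.006 to 0.19 and were not treated as pairs in the main fit. Only the alternative fit with a replicate block shared by all groups joined them by number. No pair of libraries of a group differed by as little as sampling noise, where the closest gave 3.031 as chi-square over its degrees of freedom.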

Additional observations from a re-analysis of the deposited data

How the results depend on the processing

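The counts called were within 1.5 times of those reported under the other size factors, library totals, a minimum of 10 counts in every library and a fit of only the groups compared. Without the low-count filter, which tests 36 of the set among 34084 genes, the counts were 11 (inducer in NS1 cells), 14 and 19 (NS1 against WT without and with inducer) and 8 (interaction), and 5.28%, 8.74%, 16.1% and 2.0% of all genes were called. With the replicate block they were 8, 11, 16 and 4, where 13.6%, 22.0%, 37.5% and 3.57% of all genes were called. The replicate block within each line gave 13 for the inducer in NS1 cells and 11 for the interaction (25.9% and 14.0% of all genes). DESeq2 gave 3 for the interaction (2.12% of all genes). Leaving out a replicate gave 0 to 10 for the inducer in NS1 cells (0.0% to 11.4% of all genes) and 0 to 7 for the interaction (0.0% to 3.24%). For the lines it gave 1 to 11 without inducer (1.0% to 19.6%) and 7 to 16 with it (9.03% to 34.0%). In WT cells every alternative gave 0. A fit of only the groups compared was not run for the interaction, which uses all 4 groups. The block changed no other call of the inducer comparisons than those given above. For the lines, the replicate block shared by all groups joined libraries of the same number, as an alternative only.

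Without replicate 1, 3 log2 fold changes between the lines turned sign and had an adjusted p under 0.05. ITGA2, ITGA3, LAMB3 and PLEC without inducer also turned sign, uncalled in either fit. Leaving out each replicate in turn gave -2.447 to 0.855 for ITGB4 without inducer, -1.351 to 1.713 for ITGB4 with it and -0.372 to 0.715 for HSPG2 without it. The cause was not tested. Depth limits COL17A1, ITGA7 and the 10 genes that did not pass the filter.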
